A study of Mus musculus with 12 samples.

Results

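Bdh1, Oxct1 and Acat1, 3 genes of ketone body metabolism, were followed through H3K27ac ChIP-seq of 4T1 cells. Their rows were taken from the spike-in scaled table of 126464 intervals, each of which carries the symbol of 1 nearby gene, by matching that symbol. Oxct1 was named in 4 intervals and Acat1 in 6, so 10 of the 126464 intervals and 2 of the 3 genes entered. No row used here carried the name Bdh1. The genes were chosen by their place in the pathway after their scaled H3K27ac signal in these 12 libraries, and its changes with acetate and the inhibitors, had been seen. All values, SEs and adjusted p-values given for them therefore describe these libraries and are not independent support.

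4T1 is a mouse mammary carcinoma line, here without engineered alleles (labelled WT). H3K27ac is histone H3 acetylated at a lysine of its tail, a mark of active promoters and enhancers. Cells were treated for 48 h with vehicle, 5 mM acetate, 50 µM etomoxir, etomoxir + acetate, etomoxir + 50 µM SB204990 or etomoxir + SB204990 + acetate, with 2 libraries per treatment and 12 in all. Acetate can be made into acetyl-CoA, the acetyl donor of histones, etomoxir blocks carnitine palmitoyltransferase 1 and so the entry of long-chain fatty acids into mitochondria, and SB204990 blocks ATP citrate lyase, which makes acetyl-CoA outside mitochondria. The 2 libraries of a treatment differ in a suffix of their name and are called set 1 and set 2, and nothing in the sources used here says whether they came from separate cultures, so p-values measure only the spread between these libraries. SB204990 was not given without etomoxir in these libraries.

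Ketone bodies, acetoacetate and 3-hydroxybutyrate, carry acetyl units between tissues. Liver makes them from acetyl-CoA, mostly from fatty acids, and Bdh1 interconverts acetoacetate and 3-hydroxybutyrate in mitochondria. In tissues that burn ketone bodies, Oxct1 encodes the succinyl-CoA transferase that activates acetoacetate and Acat1 encodes the mitochondrial thiolase that splits acetoacetyl-CoA into acetyl-CoA, a reaction that it can also run in reverse.

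The sequence just upstream of Oxct1 is shown because its strongest interval covers it. The 205 bases at chr15:4026178-4026382 (GRCm38.p6, plus strand, from the RefSeq promoter window of the gene) end 1 base before the first annotated base of Oxct1, and capitals mark CpG dinucleotides.
Oxct1 upstream: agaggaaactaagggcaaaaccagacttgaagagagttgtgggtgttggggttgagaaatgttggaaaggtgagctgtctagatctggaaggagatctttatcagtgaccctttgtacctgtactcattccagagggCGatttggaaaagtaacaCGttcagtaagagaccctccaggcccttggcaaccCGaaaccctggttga

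These 205 bases held 3 CpG and a GC content of 47.8%, while the 95 bases that follow them in the same 300-base window held 8 CpG and a GC content of 71.6%. Over the whole window the GC content of 55.3% was near the median of 52.7% over 32851 RefSeq windows. None of 6 short motifs searched on both strands was found in the Oxct1 window, namely the nuclear receptor half-site AGGTCA (in 16.3% of all windows), the GC box GGGCGG (35.7%), CCAAT (37.4%), the E-box CACGTG (7.15%), TATAAA (13.6%) and the cyclic AMP response element TGACGTCA (1.79%). This says only that those letters were not in this window. The strongest interval of Oxct1, which covers the window and more, held 4 GC box, 2 CCAAT and 4 half-site matches. It held no E-box, TATAAA or cyclic AMP response element. Its GC boxes were at 1.15 per kb, against 0.343 over all intervals. Of the 3 genes, Oxct1 and Bdh1 were in the promoter table, and Acat1 was not.

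For Acat1, 200 bases of its strongest interval are shown, which lies in intron 1. They lie at chr9:53598571-53598770 (GRCm38, plus strand), centred on the first pair of half-site matches that fits into that length, and capitals mark the letters AGGTCA or their reverse complement.
Acat1 intron 1: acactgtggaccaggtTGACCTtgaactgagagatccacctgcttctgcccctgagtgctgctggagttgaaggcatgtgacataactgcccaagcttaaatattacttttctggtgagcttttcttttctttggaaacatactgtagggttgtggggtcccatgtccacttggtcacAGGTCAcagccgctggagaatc

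The whole Acat1 intron 1 interval held 11 such matches, or 1.15 per kb, and the Acat1 start site interval 2, or 0.789 per kb. The Oxct1 start site interval held 4, or 1.15 per kb, and its exon 2 interval 2, or 0.435 per kb. Of the 6 weaker intervals of both genes, 2 held 1 match each and 4 held 0, and all 126359 intervals on the numbered and X and Y chromosomes together held 0.722 per kb. The strand was ignored, matches are letters only, and nothing about a bound factor follows from them.

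Oxct1 (ENSMUSG00000022186) lies at chr15:4026383-4155344 on the plus strand of mm10 (GENCODE vM21) and has 17 exons in its main transcript. Most of its signal lay at its 5' end. The start site interval, chr15:4025231-4028699, is 3469 bp long, covers exon 1 and also overlaps BC037032, a noncoding transcript on the other strand. It held 57.0% of the gene's summed signal at 47.8 scaled reads per kb, a density above 97.0% of all intervals. A scaled read is a read multiplied by the spike-in factor of its library.

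The next interval of Oxct1, chr15:4030703-4035303, is 4601 bp long, covers exon 2 and its flanking introns, and held 37.5% of the sum at 23.7 scaled reads per kb. Together these intervals carry nearly all of the signal counted for the gene. The other intervals, of 590 bp and 259 bp in intron 3, held 3.48% and 1.95%. Inside the gene, 2 more intervals carry the name of an antisense transcript, Gm15632, and were not part of the sum: chr15:4091496-4093520 over exon 9, with a mean of 34.2 scaled reads, and chr15:4138685-4138944 in intron 14, with a mean of 4.72.

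Acat1 (ENSMUSG00000032047) lies at chr9:53580522-53610382 on the minus strand and has 12 exons in its main transcript. In contrast to Oxct1, most of its signal lay downstream of the start site. The interval chr9:53598495-53608050, 9556 bp inside intron 1, held 71.3% of the sum at 23.7 scaled reads per kb. The start site interval, chr9:53608442-53610975, is 2534 bp long, covers exon 1 and held 21.4% at 26.8 scaled reads per kb.

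The authors' annotation measured distances of the Acat1 intervals from an internal start, so it places the interval over the first exon at -25952 bp, and the distances used here were recomputed from the start of the main transcript. Of the other 4 intervals of Acat1, chr9:53593498-53594706 over exons 4 and 5 held 3.95%, and the remaining 3 held 1.03% to 1.16% each. One of those 3 lies in Cul5, upstream of Acat1, and another just past the 3' end of Acat1.

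**Figure D1:**
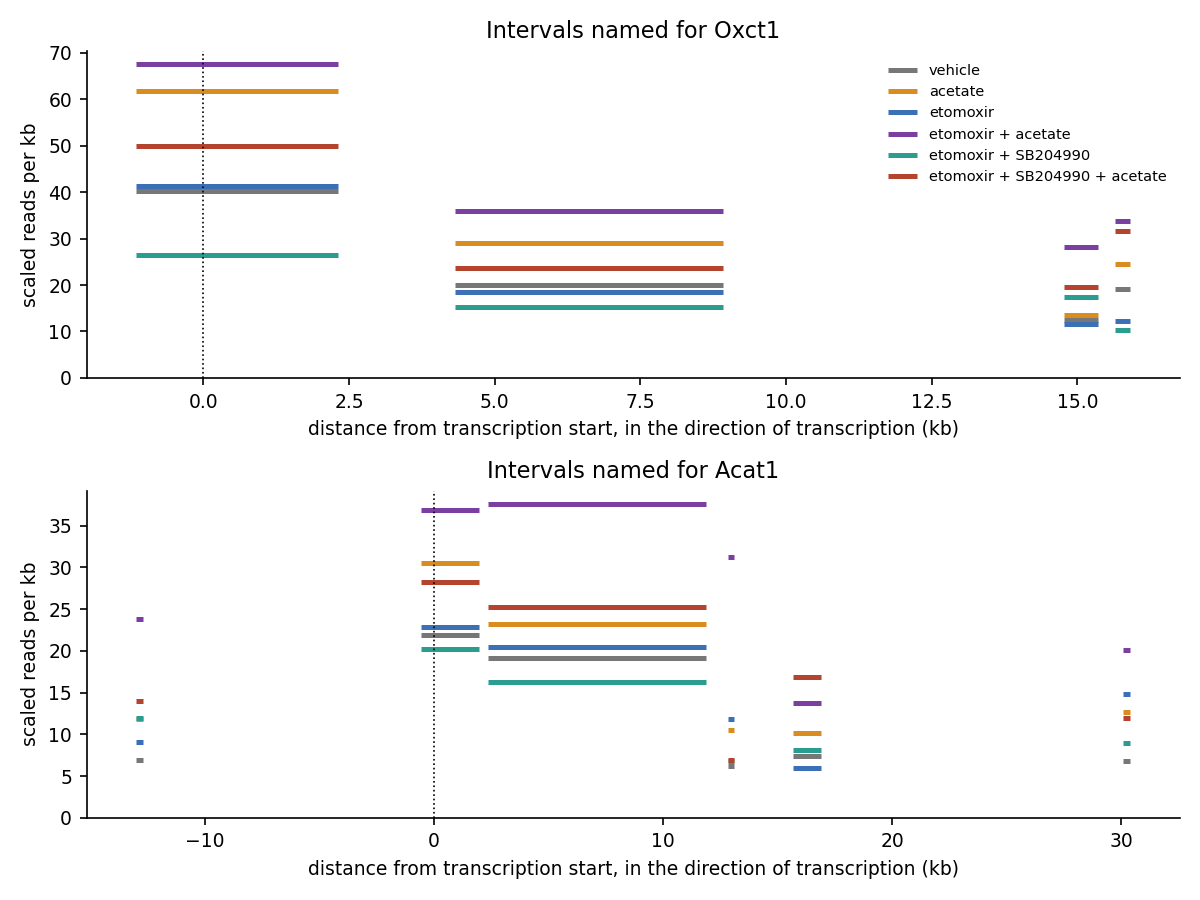
Scaled H3K27ac reads per kb (y axes) in each interval named for Oxct1 (top) and Acat1 (bottom), against distance from the transcription start in kb along the direction of transcription. Each horizontal line spans 1 interval and gives the mean of the 2 libraries of a treatment; the dotted vertical line marks the start site, where Oxct1 has its densest interval (47.8 scaled reads per kb over all libraries), whereas the 2 large intervals of Acat1 are close in density (26.8 and 23.7).

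Bdh1 lies at chr16:31422280-31458901 on the plus strand. The only interval over its gene body, chr16:31452953-31466327, spans 13375 bp, covers exons 6 and 7 and runs past the 3' end of Bdh1. It carries the name of a neighbouring noncoding gene, Gm49695, so by the rule it was not a Bdh1 interval, and it was looked at after the missing name was seen. Its mean was 272 scaled reads, or 20.3 per kb. Fitted among all intervals, it was higher with acetate by 0.86 ± 0.12 on the log2 scale (SE, adjusted p = 1.45e-10, limma), where 77.2% of all intervals were called higher and their median was 0.64, and its etomoxir change of 0.36 did not pass the test (adjusted p = 0.200, limma). No interval covered the start site of Bdh1.

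Per gene, the signal of Oxct1 in its 4 intervals, set 1 before set 2, was 249 and 239 scaled reads in vehicle, 372 and 351 in acetate, 250 and 226 in etomoxir, 456 and 394 in etomoxir + acetate, 158 and 193 in etomoxir + SB204990, and 272 and 332 in etomoxir + SB204990 + acetate. In each of the 3 pairs of treatments that differ by acetate, both acetate libraries were above both libraries without it, as were the scaled totals of these libraries. The totals were 6.82e+06 and 7.68e+06 in vehicle against 1.01e+07 and 9.99e+06 in acetate. The share of all genes so separated was not counted. The group means ran from 425 ± 44.1 (SD, n = 2) in etomoxir + acetate through 362 ± 14.8 in acetate, 302 ± 42.8 in etomoxir + SB204990 + acetate, 244 ± 6.64 in vehicle and 238 ± 17.5 in etomoxir to 175 ± 24.9 in etomoxir + SB204990. In this order vehicle and etomoxir overlapped.

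For Acat1, the 6 intervals summed to 234 and 272 scaled reads in vehicle, 312 and 330 in acetate, 282 and 260 in etomoxir, 505 and 476 in etomoxir + acetate, 189 and 260 in etomoxir + SB204990, and 300 and 385 in etomoxir + SB204990 + acetate. Etomoxir + acetate had the highest mean, 491 ± 20.4 (SD, n = 2). The means of the others were 343 ± 60.1 in etomoxir + SB204990 + acetate, 321 ± 12.6 in acetate, 271 ± 15.8 in etomoxir, 253 ± 26.6 in vehicle and 224 ± 50.4 in etomoxir + SB204990. In this order etomoxir + SB204990 + acetate overlapped acetate, etomoxir overlapped vehicle, and vehicle overlapped etomoxir + SB204990.

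**Figure D2:**
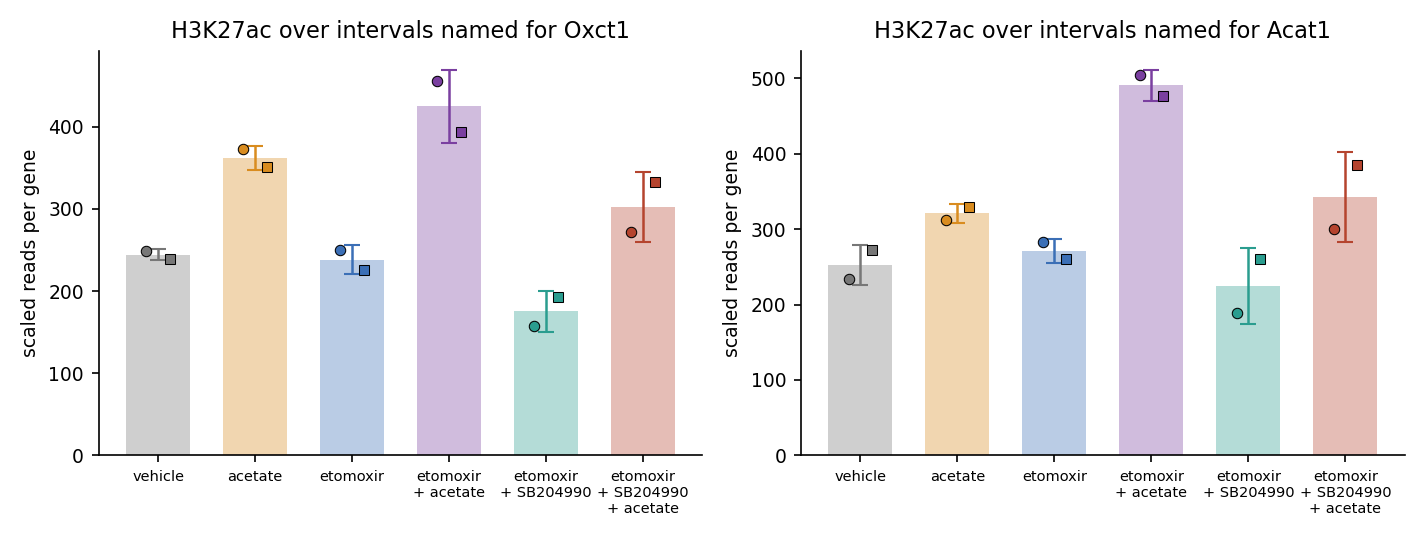
Scaled H3K27ac reads summed over the intervals named for Oxct1 (left) and Acat1 (right) in the 6 treatments. Circles are set 1, squares set 2, bars the mean of the 2 libraries and error bars their SD; both genes are highest in etomoxir + acetate (425 and 491) and lowest in etomoxir + SB204990 (175 and 224).

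Behind these values stood 193 to 617 reads for Oxct1 and 260 to 517 for Acat1 in a library, so the counting error of 1 value was 4.03% to 7.20% and 4.40% to 6.20%. Per kb of interval the mean was 32.6 scaled reads for Oxct1 and 22.4 for Acat1, levels above those of 78.7% and 54.0% of all genes. The scaled sum of Oxct1 varied 2.89-fold over the 12 libraries and that of Acat1 2.68-fold. As RPM, the reads of a gene relative to all reads of its library in intervals, which leaves the spike-in factor out, Oxct1 ranged from 26.9 to 37.0 (1.38-fold) and Acat1 from 31.0 to 37.0 (1.19-fold).

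The libraries held 7179165 to 16676442 reads in intervals, and the spike-in factors ranged from 0.398 to 1, with a factor of 1 in 1 library of each set. The library of etomoxir + SB204990 in set 2 had the fewest reads and stood apart, with 2.77% of its reads in the weakest quartile of intervals against 0.990% to 1.41% in the others, and calls of genes in the 3 averages described next that change without it are given both ways. The epithelial genes Krt8, Cdh1, Epcam and Krt19 carried 29.6 to 53.7 scaled reads per kb, Krt7 and Krt18 had no row, and of other lineages the immune genes Ptprc, Cd3e and Csf1r had 12.9 to 25.2, the endothelial genes Pecam1 and Cdh5 41.4 and 22.6, the adipocyte gene Adipoq 22.0 and the fibroblast gene Pdgfra 13.9. Lineage genes other than epithelial ones were thus not at 0, and their part in any result was not tested. In bulk chromatin, more cells with a mark and more mark per cell cannot be told apart.

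Changes were estimated by limma on log2(scaled reads + 1) summed per gene, over all 12 libraries, for the 19458 genes with a mean of at least 10, with Benjamini-Hochberg adjustment over all of them. A gene is said to be called where its adjusted p was under 0.05. The first question was what acetate did over the 3 backgrounds of no inhibitor, etomoxir, and etomoxir + SB204990. Averaged over these, Oxct1 rose by 0.73 ± 0.12 on the log2 scale (SE, 1.65-fold, adjusted p = 2.67e-05) and Acat1 by 0.60 ± 0.13 (1.52-fold, adjusted p = 1.42e-04). Both of the 2 genes were called, and so were 88.2% of all genes tested, whose median rose by 0.63. Oxct1 was above 78.0% of all genes in this change and Acat1 above 41.2%, so both moved much as the typical gene did.

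In etomoxir-treated cells, acetate raised Oxct1 1.78-fold and Acat1 1.81-fold (adjusted p = 0.00323 and 0.00317), where 78.2% of all genes were called higher. With both inhibitors the folds were 1.72 and 1.53 (adjusted p = 0.00800 and 0.0216), where 57.7% of genes were called higher. Without inhibitor they were 1.48 and 1.27, neither passed the test (adjusted p = 0.101 and 0.186), and 0% of genes were called, although 8341 genes had an unadjusted p under 0.05, DESeq2 called 3725 and edgeR 0. Within each set the fold of acetate over vehicle was 1.498 and 1.469 for Oxct1 and 1.33 and 1.21 for Acat1.

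The difference between these acetate effects was tested itself. Relative to the change without inhibitor, the acetate change in etomoxir was larger by 0.26 ± 0.30 on the log2 scale for Oxct1 and 0.51 ± 0.31 for Acat1 (adjusted p = 0.774 for both), and that with both inhibitors was larger by 0.21 ± 0.30 and 0.27 ± 0.31 (adjusted p = 0.999 for both). Neither gene was called, and 0% of all genes were called in either of these tests by limma, edgeR or DESeq2, with 31 and 11 genes at an unadjusted p under 0.05 in limma.

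The calls depended on how the libraries were scaled. When reads were scaled by their total or by median ratios, which set the typical gene to no change, the acetate average was 0.10 and 0.084 for Oxct1 and -0.019 and -0.038 for Acat1, and it was not called for either gene. When the share of reads was multiplied by the spike-in factor, which takes sequencing depth out and keeps the factor, the averages were 0.52 and 0.40 and were not called either (adjusted p = 0.399 for both, limma), with a median of 0.43 over all genes. Of all genes, 38 were called higher and 4 lower under total-sum scaling, and 0 were called by limma under the other 2, with 1018 (median ratios) and 616 (share times factor) at an unadjusted p under 0.05. By background the calls were lost as well. In etomoxir the acetate change was -0.037 for Oxct1 and -0.016 for Acat1 under median ratios, 0.091 and 0.11 under total-sum scaling and 0.86 and 0.89 under share times factor, and with both inhibitors it was 0.22 and 0.052, 0.12 and -0.048, and 0.36 and 0.20, none called. The RPM of Oxct1 exceeded that of the library without acetate in 6 of 6 comparisons inside a set (1.02- to 1.13-fold), while that of Acat1 did so in 2 of 6 (0.904- to 1.11-fold).

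**Figure D3:**
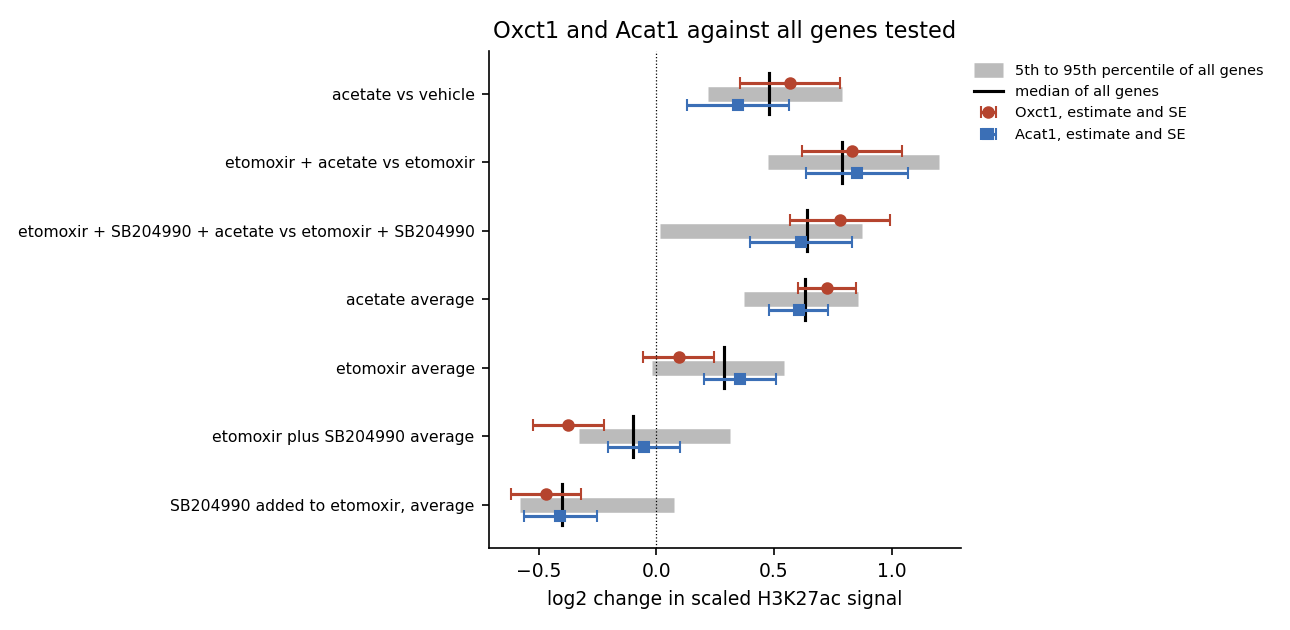
Log2 change in scaled H3K27ac signal (x axis) of Oxct1 (circles) and Acat1 (squares) with SE, for 7 comparisons (y axis), against the 5th to 95th percentile range (grey) and median (black line) of all 19458 genes. The acetate increases of both genes (0.73 and 0.60 in the average) lie within the grey range, and Oxct1 lies to the left of it in the comparison of both inhibitors (-0.37).

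The second question was what etomoxir did, averaged over cells with and without acetate. The etomoxir average of Oxct1 was 0.095 ± 0.15 on the log2 scale (adjusted p = 0.607) and that of Acat1 0.36 ± 0.15 (adjusted p = 0.181), while the median of all genes was 0.29. None of the 2 genes was called, as against 0.298% of all genes. The value of Oxct1 was above that of only 9.33% of genes, and Acat1 was above 71.1%.

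The call for Acat1 depended on which libraries shared the estimate of spread. Under these choices its change stayed 0.36, but the adjusted p was 0.0315 without the etomoxir + SB204990 library of set 2, 0.0320 without that of set 1, and 0.00388 when only the libraries of the contrast were fitted, settings under which 32.7%, 32.4% and 60.6% of all genes were called. Without acetate, etomoxir and vehicle libraries overlapped for both genes. With acetate, etomoxir changed Oxct1 1.22- and 1.12-fold within the sets and Acat1 1.62- and 1.44-fold. Neither change passed the test (adjusted p = 0.369 and 0.151, limma), where 15 of 19458 genes were called. The log2 change was 0.23 for Oxct1, above only 10.8% of genes, and 0.61 for Acat1, above 83.4%, with a median of 0.43 over all genes. With reads scaled by median ratios or by their total, the etomoxir average of Acat1 was 0.0084 and 0.088 and that of Oxct1 -0.25 and -0.17, none called. Under share times factor they were 0.26 and 0.0030, not called either.

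The third question was what both inhibitors did together against neither. The average change of Oxct1 over cells with and without acetate was -0.37 ± 0.15 (0.771-fold, adjusted p = 0.952), lower than in all but 3.30% of genes, and that of Acat1 was -0.052 ± 0.15 (adjusted p = 0.976), with a median of -0.10 over all genes. Neither was called, as against 0.0822% of all genes. Under median ratios, total-sum scaling and share times factor Oxct1 was at -0.35, -0.25 and -0.20 and Acat1 at -0.025, 0.073 and 0.13, none called. Within the sets, Oxct1 with both inhibitors was at 0.634 and 0.807 of vehicle and, with acetate, at 0.729 and 0.945 of acetate. The median log2 change of all genes was -0.18 against vehicle and -0.021 against acetate. Without the etomoxir + SB204990 library of set 2, Oxct1 was called lower at -0.45 (adjusted p = 0.0451), and 5.18% of all genes were called. With both inhibitors Acat1 was at 0.806 and 0.957 of vehicle and, with acetate, at 0.962 and 1.17 of acetate within the sets. Its groups overlapped in both of these comparisons.

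SB204990 added to etomoxir, averaged over cells with and without acetate, lowered both genes. Oxct1 fell by 0.47 on the log2 scale (SE 0.15, 0.722-fold, adjusted p = 0.0277) and Acat1 by 0.41 (SE 0.15, 0.754-fold, adjusted p = 0.0373), both called, as were 45% of all genes, whose median was -0.40. The sets differed in size. Oxct1 changed by -0.70 in set 1 and -0.23 in set 2, and Acat1 by -0.66 and -0.15. Oxct1 was no longer called without either etomoxir library, either etomoxir + acetate library or set 1 of etomoxir + SB204990 + acetate (log2 change -0.52 to -0.40, adjusted p up to 0.126). Acat1 was no longer called without any of these 5, either acetate library or set 1 of etomoxir + SB204990 (-0.44 to -0.29, adjusted p up to 0.142). Total-sum scaling left -0.076 and -0.015, median ratios -0.094 and -0.033, and share times factor -0.20 and -0.14, none called. At unchanged values, both calls were also lost in limma without an intensity trend (adjusted p = 0.0658 and 0.0673) and with only the libraries of the contrast (adjusted p = 0.0671 and 0.0794, limma). The start site interval alone kept the call for Oxct1 and not for Acat1 (adjusted p = 0.0180 and 0.280, limma).

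Within the genes, 6 of the 10 intervals had a mean of at least 10 scaled reads and were fitted among 63903 intervals. In the acetate average, 5 of these 6 were called higher, as were 77.2% of all intervals. The start site interval of Oxct1 rose by 0.74 ± 0.13 on the log2 scale and its exon 2 interval by 0.70 ± 0.15, and the intron 1 interval of Acat1 rose by 0.60 ± 0.13 and its start site interval by 0.54 ± 0.17 (adjusted p at most 0.00395, limma). The interval over exons 4 and 5 of Acat1 rose by 0.83 ± 0.31 (adjusted p = 0.0130, limma), and the intron 3 interval of Oxct1, with a mean of 10.1 scaled reads, changed by 0.49 ± 0.33 and was not called. Within each gene the acetate changes of the intervals differed by less than the SE of the least precise one, and their differences were not tested.

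No member interval was called in the etomoxir average, as against 0.421% of all intervals, or in the comparison of both inhibitors, as against 0.351%. In the former, the start site and exon 2 intervals of Oxct1 were at 0.084 and 0.083 (SE 0.16 and 0.18), and those of Acat1 were 0.17 ± 0.21 at the start site and 0.40 ± 0.15 in intron 1 (adjusted p = 0.542 and 0.191, limma). The weak intron 3 interval of Oxct1 was at 0.47 ± 0.40, and its libraries had 5.14 and 9.51 scaled reads in vehicle, 4.83 and 11.2 in acetate, 9.72 and 4.01 in etomoxir and 16 and 17.3 in etomoxir + acetate, so the groups without acetate overlapped. In the comparison of both inhibitors, the Oxct1 intervals were -0.45 ± 0.16 at the start site and -0.35 ± 0.18 at exon 2 (adjusted p = 0.452 and 1.00, limma), and the Acat1 intervals were -0.12 ± 0.21 and -0.065 ± 0.15. The weaker intervals went the other way, the intron 3 interval of Oxct1 at 0.38 ± 0.40 and the interval over exons 4 and 5 of Acat1 at 0.27 ± 0.38, neither called. By library, the start site interval of Oxct1 had 143 and 135 scaled reads in vehicle against 91.6 and 92.0 in etomoxir + SB204990, and 226 and 202 in acetate against 150 and 197 in etomoxir + SB204990 + acetate. The nearest of these with acetate, 202 and 197 scaled reads, rest on 234 and 227 reads. The log2 change was -0.60 ± 0.23 without acetate and -0.31 ± 0.23 with it, neither called.

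The ratio of Oxct1 to Acat1 reads within a library holds no scaling factor. In set 1 and set 2 it was 1.06 and 0.880 in vehicle, 1.19 and 1.07 in acetate, 0.887 and 0.868 in etomoxir, 0.903 and 0.827 in etomoxir + acetate, 0.835 and 0.742 in etomoxir + SB204990, and 0.905 and 0.863 in etomoxir + SB204990 + acetate. In 8 of 8 same-set pairs the library with an inhibitor had the lower ratio than its control without one, at 0.757 to 0.986 of it, where the controls serve in more than 1 pair. Without acetate, the vehicle library of set 2 overlapped the etomoxir libraries, and the counting error of a single ratio was 5.96% to 9.5%. With SB204990 added to etomoxir the ratio was lower in 2 of 4 pairs (0.855 to 1.04), and with acetate it was higher in 5 of 6 (0.952 to 1.21). The ratio was described and not tested.

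RPM rests on the same reads of the 2 genes as the ratio. In RPM, Oxct1 was lower with an inhibitor in 8 of 8 such pairs (0.809 to 0.922 of the control), whereas Acat1 was higher in 7 of 8 (0.935 to 1.19). The counting error of a single value was 4.03% to 7.20% for Oxct1 and 4.40% to 6.20% for Acat1. The share of all genes with pairs so much in 1 direction was not counted. With SB204990 added to etomoxir, Oxct1 was lower in 4 of 4 pairs (0.936 to 0.967) and Acat1 in 2 of 4. These pairs themselves were not tested, but the share of reads was fitted by limma as total-sum scaling. There Oxct1 was at -0.17 in the etomoxir average, -0.25 with both inhibitors and -0.076 with SB204990 added (adjusted p = 0.600, 0.157 and 0.970, limma). Acat1 was at 0.088, 0.073 and -0.015 (adjusted p = 0.780, 0.730 and 0.999, limma), so neither gene was called.

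**Figure D4:**
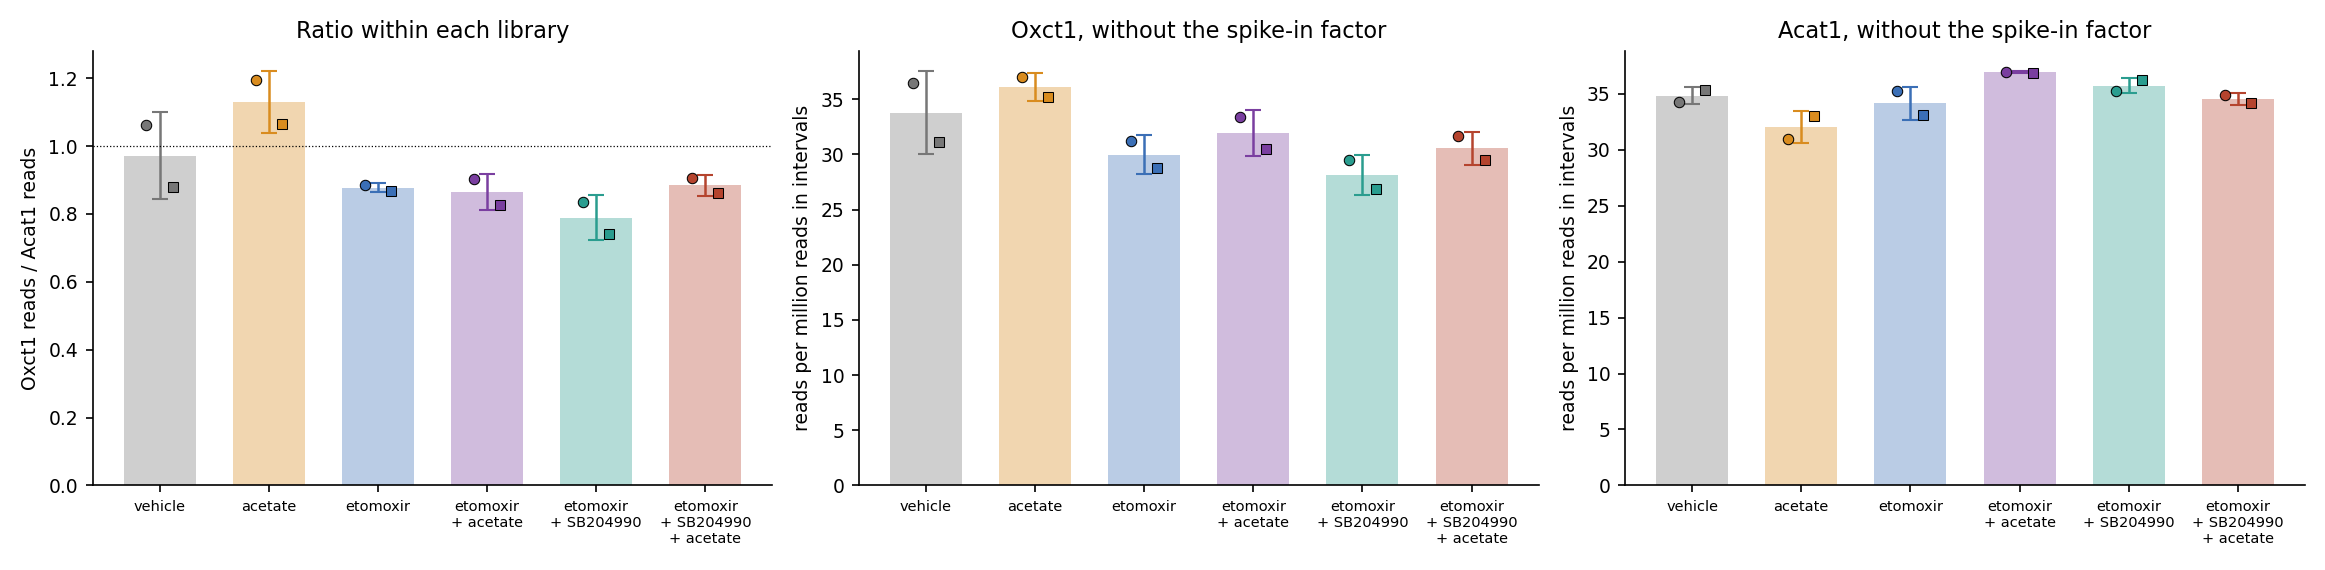
Left, ratio of Oxct1 reads to Acat1 reads in each library; middle and right, RPM of Oxct1 and Acat1 (relative to all reads in intervals), by treatment. Circles are set 1, squares set 2, bars the mean of the 2 libraries and error bars their SD; the ratio is at most 0.905 in every library with an inhibitor, and RPM ranges from 26.9 to 37.0 for Oxct1 and 31.0 to 37.0 for Acat1.

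Genes with the most similar profile were sought among 15534 genes with a mean of at least 50 scaled reads, by Pearson's r of log2 share of reads over the 12 libraries. For Oxct1 they were Gm33936 (r = 0.947), Ppm1h (r = 0.933) and Gm15867 (r = 0.925), and for Acat1 they were Shmt1 (r = 0.887), Jmjd7 (r = 0.870) and Trim24 (r = 0.862). Between Oxct1 and Acat1 r was -0.48. The libraries share treatment and depth, so these values are a description.

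Intervals of other names within 100 kb of an interval of Oxct1 or Acat1 numbered 6 at Oxct1 (4 fitted) and 11 at Acat1 (3 fitted). In the acetate average 4 of 4 and 3 of 3 were called higher, with medians of 0.57 and 0.54, against 0.64 over all intervals, of which 77.2% were called higher. In the etomoxir average none was called, and the changes ranged from -0.16 to 0.48 at Oxct1 and -0.082 to 0.22 at Acat1, as against 0.421% of all intervals called and a median of 0.33. In the comparison of both inhibitors none was called, and the median was -0.093 at Oxct1 and -0.22 at Acat1, as against 0.351% of all intervals called and a median of -0.073.

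The other genes of ketone body and related metabolism were 13 genes of a list made with earlier results known. Of these 12 had rows, in 91 intervals (Bdh2 had none), and 11 passed the filter (Slc16a6, a transporter gene, had a mean of 6.77). In the acetate average 10 of the 11 were called higher, against 88.2% of all genes, with a median of 0.67 over the list and 0.63 over all genes. The transferase genes Oxct2a and Oxct2b rose by 0.73 and 0.68, the thiolase genes Acat2 and Acat3 by 0.52 and 0.57, and Hmgcll1, which encodes a lyase, by 0.67. Aacs, the cytosolic acetoacetyl-CoA synthetase, rose by 0.75, Hmgcs1, of the sterol pathway, by 0.36, the monocarboxylate transporter genes Slc16a1 and Slc16a3 by 0.68 and 0.61, and Hadh, of fatty acid oxidation, by 0.70. By background, 8 of the 11 were called higher with acetate in etomoxir (78.2% of all genes), 6 with both inhibitors (57.7%) and 0 without inhibitor (0%).

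The exception was Slc16a7, another monocarboxylate transporter gene, at 0.34 (adjusted p = 0.327, limma). Its sum was 466 scaled reads in the etomoxir + SB204990 library of set 2 and 43.8 to 139 in the other libraries. Without that library its acetate average was 0.90 (adjusted p = 7.36e-10, limma) and 11 of 11 genes were called, as were 98.5% of all genes. Under each of the 3 other scalings 0 of the 11 were called by limma in the acetate average, as against 38 of all genes called higher under total-sum scaling and 0 under the others.

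In the etomoxir average 0 of the 11 were called by limma, edgeR or DESeq2, with 3 at an unadjusted p under 0.05 in limma and edgeR and 2 in DESeq2. Of all genes 0.298% were called by limma, and 5342 had an unadjusted p under 0.05. The changes of the 11 ranged from -0.067 for Slc16a7 to 0.54 ± 0.17 for Hadh, with a median of 0.32 against 0.29 over all genes, so that Oxct1, at 0.095, had a smaller value than all of them but Slc16a7. In the average of both inhibitors 0 of the 11 were called by any of the 3 tools, with 1 at an unadjusted p under 0.05 in each, as against 0.0822% of all genes called by limma and 810 genes at an unadjusted p under 0.05. The range there was -0.30 for Hmgcll1 to 0.53 for Slc16a7 and the median -0.0038, against -0.10 over all genes, and Oxct1 at -0.37 was below all 11. Without the etomoxir + SB204990 library of set 2, Slc16a7 was at -0.32, the median of the 11 was -0.20, their range -0.42 to -0.059, and the median of all genes -0.24. Without the etomoxir + SB204990 library of set 2, 5 of the 11 were called higher in the etomoxir average, as were 32.7% of all genes in either direction, and Hmgcll1 was called lower in the average of both inhibitors (-0.42, adjusted p = 0.0416, limma), where 5.18% of all genes were called.

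With SB204990 added to etomoxir, 2 of the 11 were called lower, Hmgcll1 (-0.46, adjusted p = 0.0276, limma) and Hadh (-0.42, adjusted p = 0.0485, limma), against 45% of all genes called. The median of the list was -0.36 and that of all genes -0.40. Under the 3 other scalings Hmgcll1 was at -0.19 to -0.070 and Hadh at -0.15 to -0.029, neither called, and limma called 0 of all genes, with 120 to 1169 at an unadjusted p under 0.05.

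**Figure D5:**
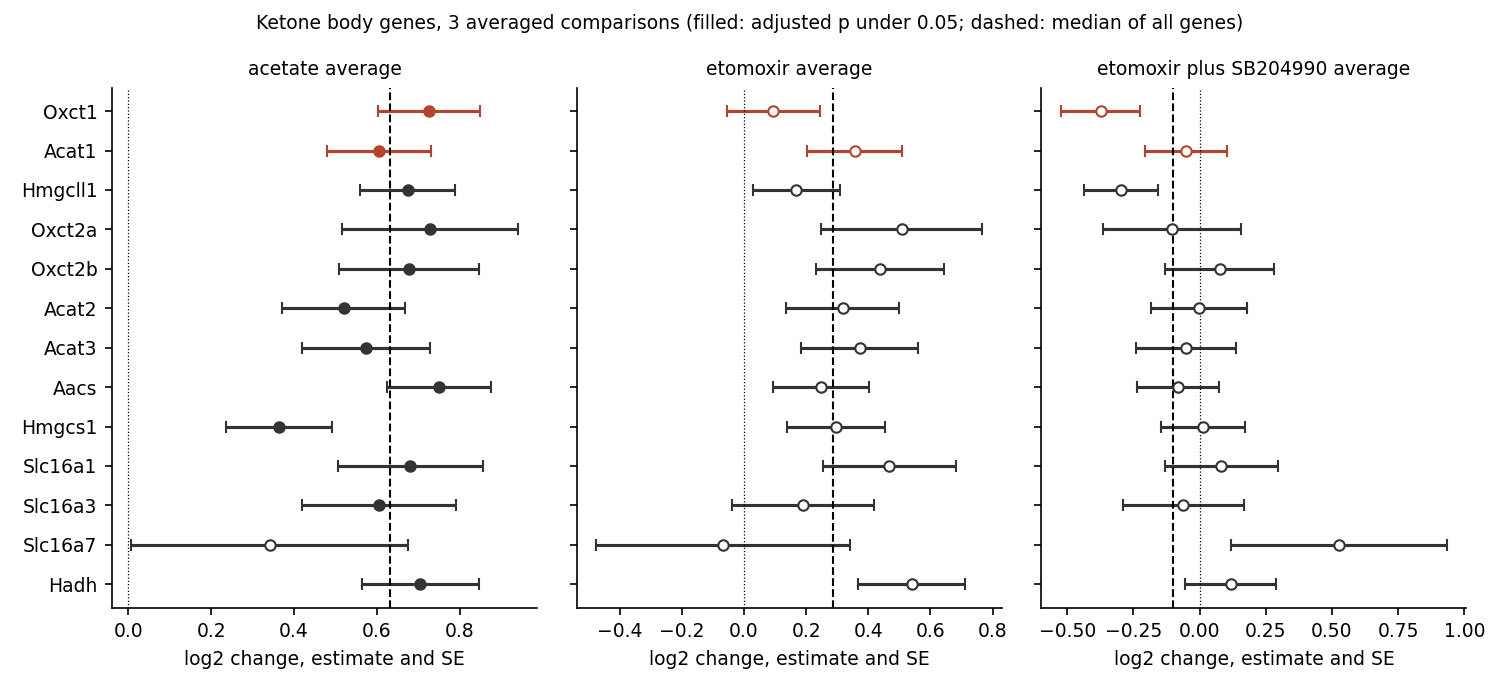
Log2 change with SE (x axes) of Oxct1, Acat1 and the 11 other genes tested, in the acetate average, the etomoxir average and the average of etomoxir plus SB204990. Filled points are called at an adjusted p under 0.05 and the dashed lines are the medians of all genes (0.63, 0.29 and -0.10); no point is filled in the middle and right panels, and Oxct1 lies left of the median in both (0.095 and -0.37).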

How the data were processed

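H3K27ac ChIP-seq of 12 libraries of 4T1 cells was used. Per the methods of the study, human chromatin (7.5%) was added as a spike-in, chromatin was cut with micrococcal nuclease, and the authors ran paired-end reads through nf-core/chipseq on a merged GRCh38 and mm10 genome. The deposited signal is the read count of an interval multiplied by a library factor, which the authors based on how much of the library was human and divided by the highest factor. In the 2 libraries with a factor of 1, 1 in each set, the deposited values are raw counts. The sources used here do not say whether the division was made within each set. It is thus not known that scaled values of set 1 and set 2 share a scale, and group means, SDs and orders across sets carry this limit. In all 12 libraries 100% of values were whole multiples of 1 read (tolerance 0.01 reads), so reads were recovered. A factor moves all intervals of its library together, and it leaves depth in the values. The interval caller, its settings and its use of replicates were not given in the sources used here.

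Signal was summed over the intervals named for a gene. limma 3.58.1 (intensity trend, R 4.3.3) was fitted on log2(signal + 1) with 6 group means, for genes or intervals with a mean of at least 10. Tests are two-sided with Benjamini-Hochberg adjustment. A log2 change is on the scale with the pseudocount of 1. edgeR 4.0.16 and DESeq2 1.42.0 on recovered reads were alternatives and called 17033 and 16706 genes higher and 1 each lower in the acetate average. The fits were tried on simulated data for the etomoxir average. There a small part of the genes changed, by more than Oxct1 and Acat1 did here, and the genes as a whole did not shift. Smaller changes and a shift of most genes were thus not covered. Gene positions were from GENCODE vM21 and sequences from RefSeq and the GRCm38 genome.

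The members and lists were chosen with earlier results of these data known. Some listed genes are not reported here. Intervals above 10% of a gene's sum, the start site interval and the 2 with the largest etomoxir average were described in full, the other pathway genes as counts with values, and the 3 genes most alike by r. Of the authors' annotation only names, positions and distances were used.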

Additional observations from a re-analysis of the deposited data

How the results depend on the processing

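Over the alternatives tried, some of them chosen after seeing the data (intervals over the gene body whatever their name, and all settings for SB204990 added to etomoxir and for the pathway list), the acetate calls were lost under other scalings, while the inhibitor calls of Acat1 and Oxct1 that appeared did so with other choices of libraries, and the cause of each shift was not tested. The acetate average of Oxct1 was 0.084, 0.10 and 0.52 under median-of-ratios, total-sum and share-times-factor scaling, and that of Acat1 -0.038, -0.019 and 0.40, none called, where the median of all genes went from 0.63 to -0.01, 0.01 and 0.43. The etomoxir average of Oxct1 went from 0.095 to -0.25, -0.17 and 0.0030 under these scalings, and that of Acat1 from 0.36 to 0.0084, 0.088 and 0.26, none called. The average of both inhibitors for Acat1 was 0.073 under total-sum scaling and 0.13 under share times factor. That of Oxct1 was -0.35 under median ratios, -0.25 under total-sum scaling and -0.20 under share times factor, against -0.37 in the main fit, not called. Acat1 was called in the etomoxir average (0.36) when only the libraries of the contrast were fitted. With single libraries left out, where the lone library of a treatment is assumed to vary like the others, the acetate average ranged from 0.68 to 0.77 for Oxct1 and from 0.53 to 0.68 for Acat1, all called, the etomoxir average from 0.042 to 0.15 and from 0.30 to 0.41, and the average of both inhibitors from -0.45 to -0.30 and from -0.17 to 0.063. For Acat1 the last was above 0 without set 1 of etomoxir + SB204990 (0.063), set 1 of etomoxir + SB204990 + acetate (0.038) or set 2 of vehicle (0.0017). With set as a replicate block, the 3 averages were 0.73, 0.095 and -0.37 for Oxct1 and 0.60, 0.36 and -0.052 for Acat1, and no call changed. Libraries of a set share a title suffix whose meaning the labels do not give, so the block rests on that suffix alone: deviations of same-set libraries correlated at -0.22 to 0.60, above 0.1 in 4 of 15 pairs. All other alternatives, edgeR and DESeq2 included, kept direction and side of the threshold for the 3 averages of both genes, except that set 2 alone, which allows no test, gave 0.079 for the average of both inhibitors in Acat1. For the acetate average the fit on its own libraries is the main one and has no separate value, and no alternative could be computed for Bdh1, which had no row. Depth limits single values to an error of 4.03% to 7.20%, and 2 libraries per treatment limit the tests.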
